A study of Mus musculus with 18 samples.

Results

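Gene expression in whole testes of 15-day-old male mice was compared between 3 carriers of t12+/+T43 and 2 control males of the C57BL/6J strain. The comparison uses 5 of the 18 arrays of the series. It covers the 9098 genes, of 15780 named on the array, that reached a log2 value of 4 on at least 2 of those 5 arrays. The carriers have the t12 form of chromosome 17 on one homologue and the T43 translocation, an exchange between chromosomes 16 and 17, on the other, in a C57BL/10J background. The controls have neither and belong to a related strain, so genotype and strain cannot be told apart in this comparison. Beside it stand testes of 15-day-old Ttf+/+T43H males (n = 3), which also have the translocation and the C57BL/10J background but a different chromosome 17 in place of t12. Sorted spermatocytes of males aged 2 months are used for comparison too: pre-mid-pachytene cells from 3 t12+/+T43 samples and 2 samples of fertile C57BL/10J mice, and 2 samples of mid-late-pachytene cells from the latter strain. All values are log2 intensities made by the authors with GCRMA. Differences are given as carrier minus control on that log2 scale with limma's standard error (SE), and a gene is called where its adjusted p was under 0.05. The design text describes the replicates as biological.

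As background, t haplotypes are variant forms of the proximal region of chromosome 17 that differ from the common form by inversions, and they are known for their effects on male fertility. Chromosomes that fail to pair at meiotic prophase are silenced in pachytene spermatocytes, as the X and Y are in every normal male, and the title of the study places it in this field. The juvenile testis holds the first wave of germ cells, in which pachytene cells have just become common and spermatids have not yet formed.

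Most of these markers matched the labelled tissue and age. The mean log2 value of the 13 Sertoli markers on the array was 9.84, 9.82 and 9.99 in the carriers and 9.72 and 9.75 in the controls. Of these markers, 2 stayed under 4 on all 5 arrays. Clu, a high member, read 15.22, 15.19 and 15.25 in the carriers and 15.18 and 15.17 in the controls. The axis protein gene Sycp3 of meiotic prophase read 14.86, 15.01 and 14.83 in the carriers and 14.77 and 14.82 in the controls. Of the 12 spermatid markers, 10 stayed under 4 on all 5 arrays, among them the protamine genes Prm1 and Prm2. The other members were well above 4, Spaca1 at 7.53 to 8.16 and Odf2 at 8.64 to 9.28 over the 5 arrays. Replicates of a group correlated across genes at 0.993 to 0.997 in the carriers and at 0.997 in the controls. The 3′ minus 5′ difference of Gapdh control probes, a sign of RNA quality, lay between -0.06 and 0.06 in the carriers and between -0.12 and -0.08 in the controls. Values near or under 4 carry little signal over background, so a difference in which one group lies there is a difference between GCRMA values rather than a measured ratio of RNA.

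The carriers differed from the controls at 1994 of 9098 genes (21.9% called), of which 964 were higher (10.6%) and 1030 were lower (11.3%). Most differences were small: the median size among called genes was 0.40, and 269 genes differed by 2-fold or more. Those large differences were unequal in direction, with 58 genes higher and 211 lower. The group ranges did not overlap at 56.9% of all tested genes, with the carriers higher at 30.3% and lower at 26.5%. The split depended on the scaling, since quantile normalization gave 57.5% of calls as higher and centring each array on its median gave 59.3%, against 48.3% on the deposited values. Leaving out a control array lowered the number of calls to 571 (without replicate 1) or 831 (without replicate 2), and leaving out carrier replicate 2 lowered it to 1249. Of the tested genes, 8815 passed the filter on all 5 arrays, 61 through the carriers alone, of which 28 were called higher, and 79 through the controls alone, of which 71 were called lower.

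**Figure D1:**
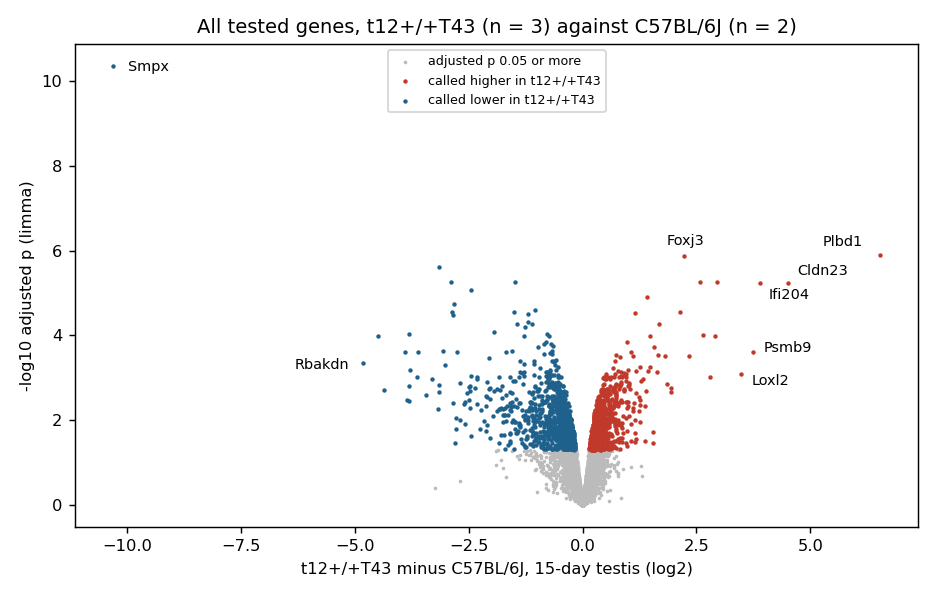
Each point is 1 of 9098 tested genes, plotted by its log2 difference between t12+/+T43 (n = 3) and C57BL/6J testes (n = 2) and by minus log10 of limma's adjusted p. The 964 genes called higher are red, the 1030 called lower are blue and genes not called are grey, and Smpx and Plbd1 lie farthest out on either side.

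The largest fall and the largest rise were those of Smpx and Plbd1, which lie away from chromosomes 16 and 17 and read alike in both carrier lines. Smpx, an X-linked gene for a small muscle protein, read 2.39, 2.43 and 2.38 in the carriers and 12.73 and 12.67 in the controls. It was high in every control and at the level of background in every carrier, a difference of -10.30 ± 0.048 (adjusted p = 4.39e-11). The Ttf+/+T43H testes read 2.46, 2.39 and 2.40. Plbd1, which encodes a phospholipase B-like protein, went the other way, at 8.99, 9.08 and 9.24 in the carriers and 2.36 and 2.78 in the controls. The difference was 6.53 ± 0.14 (adjusted p = 1.29e-06), and the Ttf+/+T43H testes stood beside the t12 carriers at 8.75, 9.01 and 8.87. Both carrier groups share the C57BL/10J background as well as the translocation. Smpx passed the filter through the controls alone and Plbd1 through the t12 carriers alone, which favoured the direction of each difference.

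The reference genome is that of C57BL/6J, the control strain, so the start regions of both genes can be shown for the strain in which Smpx is high and Plbd1 low. The carriers' own sequence was not analysed here. The third sequence is the stretch that separates a pair of antigen-processing genes described below, which rose together. Each is from RefSeq in build GRCm38.p6. The windows of 250 bases before the first base of Smpx (chrX:157698723-157698972, plus strand) and of Plbd1 (chr6:136661894-136662143, minus strand) hold no GC box, the hexamer GGGCGG on either strand. That motif was present before 62.0% of the tested genes that had a promoter in the table. In the third (chr17:34187331-34187555, plus strand) the 1 GC box is in capitals.
Smpx: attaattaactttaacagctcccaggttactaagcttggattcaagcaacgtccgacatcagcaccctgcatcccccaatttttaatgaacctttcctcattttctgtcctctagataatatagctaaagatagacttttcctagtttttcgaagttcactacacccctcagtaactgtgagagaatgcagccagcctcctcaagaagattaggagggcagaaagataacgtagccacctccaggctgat
Plbd1: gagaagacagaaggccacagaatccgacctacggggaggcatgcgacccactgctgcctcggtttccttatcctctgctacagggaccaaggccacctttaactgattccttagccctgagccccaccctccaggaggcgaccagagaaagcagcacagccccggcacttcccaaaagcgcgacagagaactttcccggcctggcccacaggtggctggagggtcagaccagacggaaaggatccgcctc
Psmb9 to Tap1: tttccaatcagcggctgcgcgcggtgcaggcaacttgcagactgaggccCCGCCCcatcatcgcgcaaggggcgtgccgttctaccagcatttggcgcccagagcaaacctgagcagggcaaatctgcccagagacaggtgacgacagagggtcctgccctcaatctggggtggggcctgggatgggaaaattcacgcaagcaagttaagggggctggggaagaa

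A group of other autosomal genes had the same pattern of high values in both carrier lines and low values in the controls. Cldn23, a claudin of tight junctions, read 6.0, 5.62 and 5.57 in the carriers and 1.21 and 1.21 in the controls, a difference of 4.52 ± 0.15. Ifi204, an interferon-inducible gene of the p200 family, read 6.45, 6.82 and 6.71 in the carriers and 2.75 and 2.78 in the controls and differed by 3.89 ± 0.13. In the Ttf+/+T43H testes Cldn23 read 5.50, 5.17 and 5.41 and Ifi204 read 6.46, 6.25 and 6.57. Loxl2, a lysyl oxidase of the extracellular matrix, differed by 3.48 ± 0.32, and Krt79, a keratin, by 2.64 ± 0.15. The hydrolase genes Hdhd3 and Hddc3 differed by 2.90 ± 0.17 and 2.59 ± 0.078. Foxj3, a forkhead transcription factor, read 8.22, 8.25 and 8.26 in the carriers and 5.96 and 6.06 in the controls, far above background on all 5 arrays, and differed by 2.23 ± 0.05 (adjusted p = 1.33e-06). None of these 7 genes was called between the carrier lines, where the adjusted p lay between 0.131 for Cldn23 and 0.879 for Hddc3. Of the 7, Cldn23, Ifi204, Loxl2, Krt79 and Hdhd3 passed the filter through the t12 carriers alone, which favoured higher values in carriers. Foxj3 and Hddc3 passed on all 5 arrays.

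Nnt, the mitochondrial transhydrogenase gene in which C57BL/6J is known to carry a deletion, gave a check of the strain labels. It read 9.49, 9.56 and 9.66 in the carriers and 8.10 and 8.10 in the controls, lower in both controls than in any carrier, with a difference of 1.47 ± 0.085 (adjusted p = 0.000105). The Ttf+/+T43H testes read 9.29, 9.23 and 9.47. In sorted cells, where the controls were C57BL/10J, the t12 carriers differed at Nnt by 0.58 ± 0.29, which was not called (adjusted p = 0.286). Plbd1 was not called there either, at -0.89 ± 0.44 (adjusted p = 0.279), nor was Foxj3, at 1.50 ± 0.52 (adjusted p = 0.117). On simulated data the sorted comparison recovered 4% of 2-fold and 54% of 4-fold changes, so these genes may still differ there. Smpx was called lower against C57BL/10J cells too, at -5.03 ± 0.35 (adjusted p = 0.000194).

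A separate set of rises was found in t12 carriers and not in Ttf carriers, and it lay in the major histocompatibility complex (MHC) of proximal chromosome 17. Psmb9, a subunit of the immunoproteasome that cuts peptides for antigen display, read 7.29, 7.47 and 7.85 in the carriers and 3.81 and 3.78 in the controls. Its difference was 3.74 ± 0.26 (adjusted p = 0.000252), whereas the Ttf+/+T43H testes read 3.82, 3.77 and 4.58. Tap1 and Tap2 encode both subunits of the transporter that carries those peptides into the endoplasmic reticulum. Tap1 read 4.58, 4.93 and 4.88 in the carriers and 2.47 and 2.47 in the controls and Tap2 read 4.53, 4.63 and 4.30 in the carriers and 2.40 and 2.29 in the controls, and for both genes every carrier was above 4 and every control under 3. The Ttf+/+T43H testes stayed with the controls, at 2.21, 2.43 and 2.78 for Tap1 and 2.60, 2.58 and 2.59 for Tap2. H2-Bl, a class I gene of the complex, read 5.74, 5.71 and 4.80 in the carriers and 2.69 and 2.57 in the controls, against 2.98, 2.81 and 2.93 in the Ttf carriers.

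The test between the carrier lines called all 4 of these genes. They had passed the filter through the t12 carriers alone, and the Ttf arrays had no part in that filter. Their selection therefore favoured higher values in t12 carriers here too. At all tested genes that comparison called 5.01%, with 98 higher in t12 carriers (1.08%) and 358 lower (3.93%). Psmb9 differed between the lines by 3.48 ± 0.23 (adjusted p = 0.00169) and Tap1 by 2.32 ± 0.15 (adjusted p = 0.00169). Tap2 differed by 1.89 ± 0.084 (adjusted p = 0.000523) and H2-Bl by 2.52 ± 0.24 (adjusted p = 0.00985). The H2-Bl call between the lines was lost without Ttf replicate 2 or t12 replicate 2, with adjusted p up to 0.0644, and the others were kept in every setting. That comparison depended on single arrays: it called 22 genes without Ttf replicate 1, 13 without Ttf replicate 2 and 890 without Ttf replicate 3, and 327, 10 and 17 without t12 replicates 1, 2 and 3. Of the 24 genes named by the selection rule and called in it, only Psmb9, Tap1, Tap2, Pabpc6 and Rsph1 kept the call in every setting. The first bases of Psmb9 and Tap1 lie 225 bases apart on opposite strands, so the stretch printed above is the region before both genes. Its GC box starts 55 bases before Psmb9 and 176 bases before Tap1.

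Beyond these 4, no tested antigen-display gene was called higher. Of 13 tested members of the MHC list, 4 rose, 4 fell and 5 were not called, with a median of -0.02, against 10.6% and 11.3% over all tested genes. That median became 0.01 with arrays centred on their median and 0.14 without control replicate 1. All 4 rises passed the filter through the carrier arrays alone, and the fall of H2-Ab1 through the controls alone. The classical class I genes H2-K1 and H2-D1 differed by 0.22 ± 0.10 and 0.26 ± 0.10, neither called (adjusted p = 0.14 and 0.104). H2-K1 was the fifth member called higher than in Ttf carriers, by 0.81 ± 0.086 (adjusted p = 0.016), where the Ttf testes differed from the controls by -0.58 ± 0.10 (adjusted p = 0.014). The falls were H2-Q10 at -1.17 ± 0.14, the class II gene H2-Ab1 at -0.75 ± 0.075, Pfdn6 at -0.58 ± 0.049 and the loading factor Tapbp at -0.37 ± 0.069. Psmb8, the neighbouring immunoproteasome gene, did not reach 4 on any of the 5 arrays. B2m, the light chain of class I molecules, differed by -0.15 ± 0.14 and was not called (adjusted p = 0.487). Without control replicate 1 the list kept its 4 rises and 2 falls among 12 tested members.

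Among 13 tested interferon-responsive genes 2 rose (15.4%, near the 10.6% of all tested genes) and none was called lower (11.3% of all), with a median of 0.08. Beside Ifi204, which passed the filter through the carriers alone, this was Irf9, a subunit of the interferon-activated transcription factor, at 7.44, 7.46 and 7.30 in the carriers and 6.93 and 7.03 in the controls. Its difference of 0.42 ± 0.076 (adjusted p = 0.0101) was lost without control replicate 1, and over all settings its adjusted p ranged from 0.00841 to 0.0847. Other members went the opposite way without a call, such as Xaf1 at -0.48 ± 0.15 and Oasl2 at -0.62 ± 0.21.

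**Figure D2:**
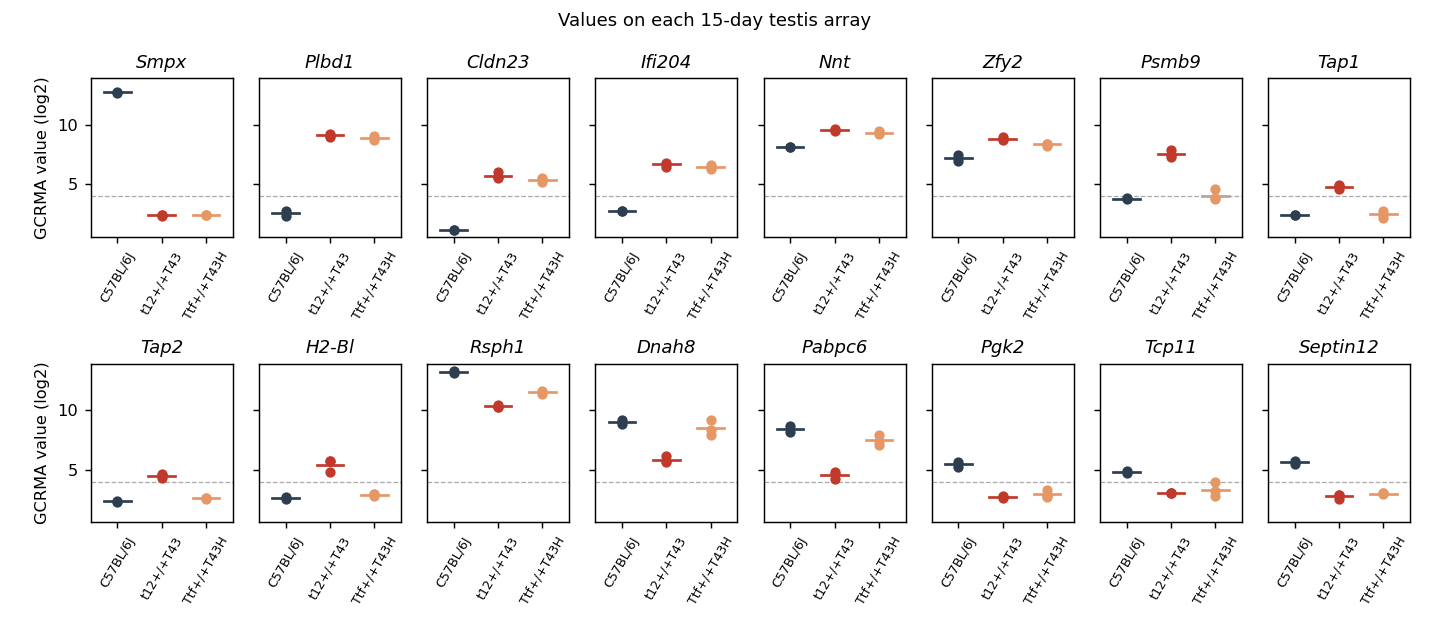
Each panel shows 1 gene, with a point for each 15-day testis array and a bar at the group mean, for C57BL/6J (n = 2), t12+/+T43 (n = 3) and Ttf+/+T43H (n = 3). The vertical axis is the log2 GCRMA value and the dashed line marks 4. Smpx, Plbd1, Cldn23, Ifi204 and Nnt read alike in both carrier lines, whereas Psmb9, Tap1, Tap2 and H2-Bl are higher in the t12 carriers than in both other groups.

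Proximal chromosome 17 had the largest share of lowered genes of any region. Of its 272 tested genes, 104 fell (38.2%) and 17 rose (6.25%), with a median difference of -0.18, and the mean was lower in carriers at 70.6% of them against 46.3% of all tested genes. On the 17 autosomes other than 16 and 17, between 8.05% and 13.7% of genes fell. The same region in Ttf carriers, compared with the same control arrays, had 78 falls and 5 rises, where 8.65% of all genes were called (4.76% lower). Tested directly between the lines, 21 of the 272 genes were lower in t12 carriers and 17 were higher, against 3.93% and 1.08% of all tested genes. Without control replicate 1 the falls numbered 56 of 269, and without control replicate 2 they numbered 72 of 269, while the rises numbered 11 and 10.

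The falls were spread along the whole proximal region. In consecutive blocks of 25 tested genes from the centromere, between 6 and 15 fell in each of the first 11 blocks, which cover the region and 3 genes beyond it. In the 7 full blocks that follow, between 1 and 5 fell. The fifth block, from Lmf1 to Axin1, held the most, 15. Telo2, a partner of large DNA-damage kinases, read 6.11, 6.09 and 6.10 in the carriers and 7.16 and 7.15 in the controls and differed by -1.05 ± 0.044 (adjusted p = 2.58e-05). Rnf8, a ubiquitin ligase of the DNA damage response, read 9.53, 9.57 and 9.56 in the carriers and 10.24 and 10.21 in the controls and differed by -0.68 ± 0.045. The Ttf carriers read 6.28, 6.21 and 6.26 for Telo2 and 9.49, 9.47 and 9.54 for Rnf8, close to the t12 carriers, and neither gene was called between the lines (adjusted p = 0.0726 and 0.473).

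In all, 25 genes of the region fell by 2-fold or more. The deepest, leaving out clone names, were Pabpc6, a poly(A)-binding protein gene, at 4.64, 4.23 and 4.77 in the carriers and 8.69 and 8.18 in the controls, and Morc2b, at 6.27, 5.98 and 5.32 in the carriers and 9.67 and 9.62 in the controls. Pabpc6 differed by -3.89 ± 0.27 (adjusted p = 0.00025) and Morc2b by -3.79 ± 0.33 (adjusted p = 0.000674). Pabpc6 was also lower than in Ttf carriers, with a difference of -2.90 ± 0.24 (adjusted p = 0.00513). Some of the 25 encode general cellular machinery. The following were chosen after their values were seen. Tbp, the TATA-binding protein, differed by -1.28 ± 0.074, Pkmyt1, a kinase that restrains mitotic entry, by -1.29 ± 0.10, and Dhx16, a splicing helicase, by -1.45 ± 0.073. Tbp differed from the Ttf carriers by -0.58 ± 0.066 (adjusted p = 0.0172) and Dhx16 by -0.97 ± 0.066 (adjusted p = 0.00169).

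The fifth rise of 2-fold or more in the region, beside the 4 MHC genes, was Glo1, a detoxifying glyoxalase. It read 10.62, 10.67 and 10.72 in the carriers and 9.55 and 9.63 in the controls and differed by 1.07 ± 0.073, with 10.77, 10.72 and 10.93 in the Ttf carriers.

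The t complex list, genes named for their map position in the haplotype or tied to its effects on sperm, had 7 tested members, of which 3 fell (42.9%, near the 38.2% of proximal 17 where they lie) and 1 rose, against 10.6% higher and 11.3% lower over all tested genes. Dnah8, an axonemal dynein heavy chain, read 6.12, 5.64 and 5.71 in the carriers and 9.12 and 8.82 in the controls. Its difference of -3.14 ± 0.34 (adjusted p = 0.00145) set the t12 carriers apart from the Ttf carriers as well, which read 9.15, 8.34 and 7.91, by -2.64 ± 0.30 (adjusted p = 0.0168). That second call was lost without Ttf replicate 2, t12 replicate 2 or t12 replicate 3. Tcp1, a subunit of the cytosolic chaperonin, was high everywhere, at 13.27, 13.04 and 13.21 in the carriers and 13.93 and 13.87 in the controls, and differed by -0.73 ± 0.076. Tcp11, a testis gene, read 3.05, 3.07 and 3.06 in the carriers and 4.75 and 4.87 in the controls and passed the filter through the controls alone. Igf2r, the imprinted receptor gene, rose by 0.47 ± 0.11 (adjusted p = 0.0282), and Qk, an RNA-binding protein gene, was not called against the controls (adjusted p = 1), while it was higher than in Ttf carriers by 0.60 ± 0.063 (adjusted p = 0.0151). With either control array left out 2 of 6 tested members were called lower, and Igf2r was not called.

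Beyond the proximal region the share of falls was closer to that of all tested genes. Distal chromosome 17 had 27 falls and 11 rises among 179 tested genes (15.1% and 6.15%), with a median of -0.04. Chromosome 16 had 47 falls and 29 rises among 290 genes (16.2% and 10.0%), with a median of -0.01 that became 0.03 under quantile normalization or median centring. The 75 tested genes nearest the centromere of 16, a division chosen after the values were seen, held 20 of those falls (26.7%) and 4 rises, with a median of -0.13. The other 215 genes held 27 falls (12.6%). Without a control array the first 75 genes kept 8 falls of 73 (without replicate 1) or 11 of 73 (without replicate 2), and without t12 replicate 2 they kept 12 of 75. Over the whole of 16 the falls numbered 15, 24 and 27 in these settings. On distal 17 they numbered 12 and 15 without control replicates 1 and 2.

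Septin12, a septin of the sperm tail annulus, lies on chromosome 16 and read 2.89, 2.51 and 2.89 in the carriers and 5.73 and 5.48 in the controls, against 3.05, 2.95 and 3.01 in the Ttf carriers. It passed the filter through the controls alone and differed by -2.84 ± 0.13 (adjusted p = 3.29e-05). Slx4, a scaffold for structure-specific nucleases, read 5.24, 5.11 and 5.24 in the carriers and 5.74 and 5.76 in the controls and differed by -0.55 ± 0.056. On distal 17 the rises Ltbp1, a carrier of latent growth factor, at 0.96 ± 0.087, and Lpin2, a lipid phosphatase, at 0.70 ± 0.054, had counterparts of 0.77 ± 0.087 and 0.66 ± 0.054 in Ttf carriers against the same controls.

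**Figure D3:**
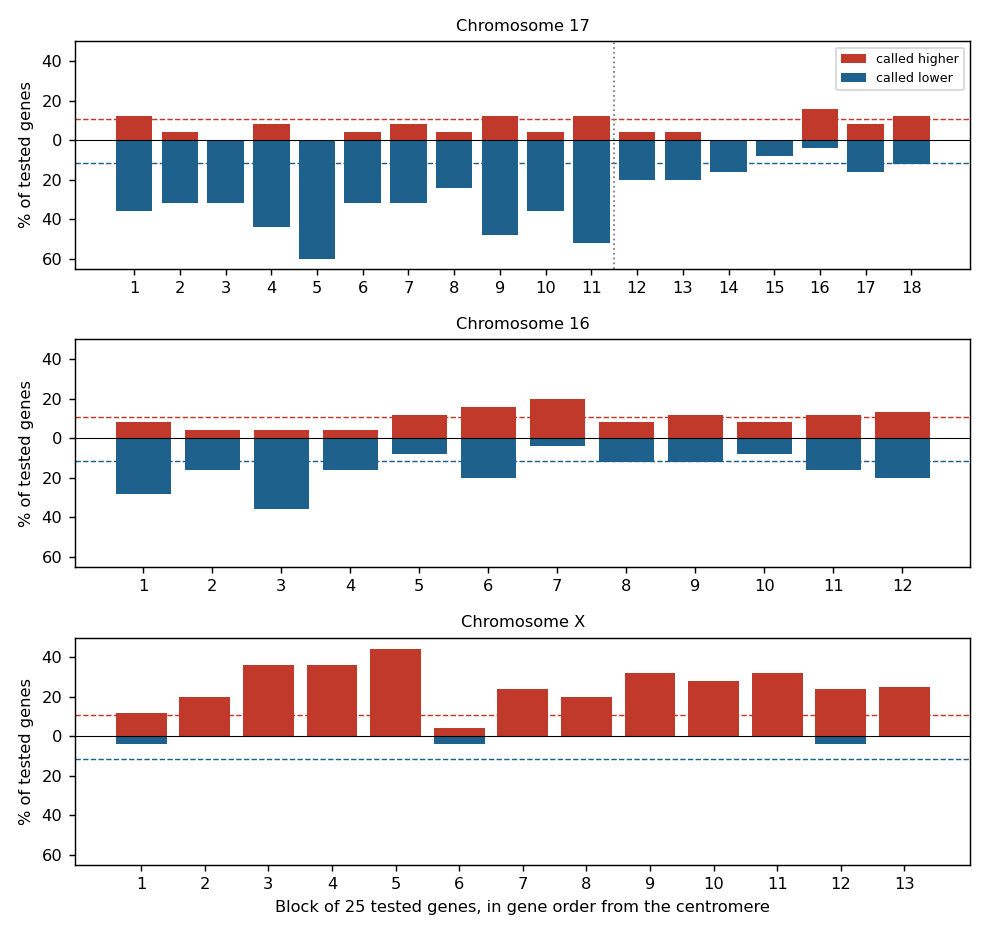
Bars give the percent of tested genes called higher (red, up) and lower (blue, down) in t12 carriers in consecutive blocks of 25 tested genes along chromosomes 17, 16 and X, with dashed lines at the shares of all tested genes, 10.6% and 11.3%. The last blocks of 16 and X hold 15 and 16 genes, a last block of 1 gene on 17 is not drawn, and the dotted line on 17 separates its proximal from its distal region. The proximal blocks of 17 all exceed the dashed line for lower genes, and most blocks of the X exceed that for higher genes.

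The X chromosome moved in the opposite direction to proximal 17. Of 316 tested genes 82 rose (25.9%) and 3 fell, with a median of 0.17, and the mean was lower in carriers at 14.9% of X genes. On the 17 other autosomes between 6.96% and 13.2% of genes rose. Only 4 X genes rose by 2-fold or more: Eras, Gm9, H2bfm and 1700080O16Rik, by 1.15 to 1.29. Ttf carriers against the same controls had 14 rises and 4 falls among these 316 genes, against 3.89% higher and 4.76% lower over all tested genes. Their median on the X was 0.007. Between the lines, 19 X genes were higher in t12 carriers and 0 were lower by limma, against 1.08% and 3.93% of all tested genes. Without control replicate 1 the rises numbered 29, and without control replicate 2 they numbered 31.

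Of 7 tested X germ cell genes 6 rose (85.7%, against 25.9% of tested X genes), with a median of 0.32, and 3 rose with either control array left out. Magea5, of a family expressed in germ cells, read 9.96, 10.02 and 9.80 in the carriers and 9.14 and 9.34 in the controls and differed by 0.68 ± 0.094 (adjusted p = 0.00372). Tex16 read 10.17, 10.16 and 10.07 in the carriers and 9.66 and 9.53 in the controls and differed by 0.55 ± 0.062. Taf7l, a germ cell form of a general transcription factor subunit, differed by 0.32 ± 0.049, a call lost without control replicate 1. Rhox13, a homeobox gene of spermatogenic cells, was the member not called, at 0.25 ± 0.085 (adjusted p = 0.0723). Of 16 housekeeping genes 3 rose (18.8%) and none was called lower, with a median of 0.17. They were Kdm6a, a histone demethylase, at 0.54 ± 0.069, Stag2, a cohesin subunit, at 0.45 ± 0.048, and the copper transporter Atp7a, at 0.39 ± 0.071, a call lost with either control array left out. Stag2 was also higher than in Ttf carriers, by 0.32 ± 0.043 (adjusted p = 0.0297). Bgn, which encodes a matrix proteoglycan, and Nudt11 were the other X genes called lower beside Smpx, at -0.79 ± 0.11 and -0.23 ± 0.055.

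All 4 tested Y-linked genes rose, where 10.6% of all tested genes did, with a median of 0.84, and 2 of the 4 were called higher with either control array left out. Zfy2, a zinc-finger gene known for its role in meiotic checkpoint and division, read 8.78, 9.0 and 8.70 in the carriers and 7.42 and 6.97 in the controls. Every carrier was above both controls, and the difference was 1.63 ± 0.14 (adjusted p = 0.000746). Usp9y, a deubiquitinase gene, read 8.89, 8.97 and 8.78 in the carriers and 8.12 and 7.96 in the controls and differed by 0.84 ± 0.074. Uty, a histone demethylase relative, read 5.95, 6.26 and 6.21 in the carriers and 5.44 and 5.18 in the controls and differed by 0.83 ± 0.24. Eif2s3y, needed for spermatogonial proliferation, differed by 0.28 ± 0.08 (adjusted p = 0.0452), a call lost with either control array left out, without t12 replicate 1 or 2, and in 2 other settings. In the Ttf carriers Zfy2 read 8.24, 8.39 and 8.41, between the other groups, and no Y gene was called between the lines (adjusted p = 0.0743 for Zfy2). Against C57BL/10J sorted cells Zfy2 differed by -0.35 ± 0.63 (adjusted p = 0.829).

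In a whole testis a lower value can reflect fewer cells of a type or less RNA in each cell, and these cannot be told apart. Of the 9 tested mid-late pachytene markers 8 fell and none was called higher, with a median of -1.37, against 10.6% higher and 11.3% lower over all tested genes and a median of 0.02. Of these 8, Pgk2 and Tcp11 passed the filter through the controls alone and so had to be lower in carriers. With a filter of 4 on every array, 7 members were tested and 7 fell, with a median of -1.16. Pgk2, the germ cell phosphoglycerate kinase, read 2.79, 2.69 and 2.61 in the carriers and 5.66 and 5.23 in the controls and differed by -2.75 ± 0.19 (adjusted p = 0.000252). In the comparison of C57BL/10J pachytene stages described below, Pgk2 was not called, at 0.75 (limma's adjusted p = 0.479). Tcp11 and Clgn were called higher in mid-late cells there, at 1.53 and 1.58. Ldhc, the germ cell lactate dehydrogenase, read 12.54, 12.19 and 11.63 in the carriers and 13.62 and 13.37 in the controls and differed by -1.37 ± 0.27 (adjusted p = 0.0133), while the Ttf carriers read 13.71, 13.34 and 13.15. Clgn, a chaperone of the endoplasmic reticulum needed for sperm adhesion proteins, read 10.38, 10.27 and 10.03 in the carriers and 11.17 and 11.15 in the controls and differed by -0.93 ± 0.12. Spink2, an acrosomal protease inhibitor, differed by -2.12 ± 0.45, and Adam2, a sperm surface protein, by -1.58 ± 0.42. Piwil1, the Piwi protein of pachytene, was the member not called, at -1.16 ± 0.35 (adjusted p = 0.0519). With 1 control array left out, 7 members were tested and 1 was called lower, whichever of the controls it was, and without t12 replicate 2 the number was 5.

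Of 13 tested flagellum and cilium genes 10 fell and none was called higher, with a median of -1.51, against 10.6% higher and 11.3% lower over all tested genes. Dnali1, Rsph9 and Spag16, of these 10, passed the filter through the controls alone. With a filter of 4 on every array 8 members were tested and 6 fell, with a median of -1.19. Between the lines, 6 of the 13 were lower than in Ttf carriers, where 3.93% of all tested genes were. Rsph1, of the axonemal radial spoke, lies in proximal 17 and had the smallest p of the list. It read 10.43, 10.25 and 10.26 in the carriers and 13.26 and 13.12 in the controls, with no overlap between groups and far above background, and differed by -2.88 ± 0.09 (adjusted p = 5.61e-06). The Ttf carriers read 11.60, 11.47 and 11.37, between the other groups, and the t12 carriers differed from them by -1.17 ± 0.08 (adjusted p = 0.00169), a call kept in every setting. Away from 16 and 17, Dnali1, a dynein light intermediate chain, read 2.68, 2.40 and 2.20 in the carriers and 5.05 and 4.44 in the controls and differed by -2.32 ± 0.23, passing the filter through the controls alone. Tekt1, a tektin of axonemal microtubules, read 7.38, 7.0 and 5.91 in the carriers and 8.98 and 8.75 in the controls and differed by -2.10 ± 0.41. Kif9, a kinesin of the central apparatus, read 4.88, 4.85 and 4.91 in the carriers and 6.53 and 6.25 in the controls and differed by -1.51 ± 0.22. Spag17, Meig1 and Kif27 were not called, at -0.64 ± 0.63, -0.64 ± 0.21 and -0.32 ± 0.16. Of the 10 tested members that remained without control replicate 1, 4 were called lower, and without control replicate 2, 6 of 10.

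The piRNA pathway, which makes small RNAs that guide Piwi proteins to transposon and other transcripts in germ cells, was lower in part. Of 19 tested genes 6 fell (31.6%) and none was called higher, with a median of -0.24, against 10.6% higher and 11.3% lower over all tested genes. Tdrd5, a tudor protein, read 9.30, 9.13 and 8.84 in the carriers and 10.26 and 9.96 in the controls and differed by -1.02 ± 0.19. Ddx25, an RNA helicase of late spermatogenic cells, differed by -1.07 ± 0.21, Tdrd9, a helicase with a tudor domain, by -0.50 ± 0.10, and Gtsf1, a Piwi cofactor, by -0.45 ± 0.079. Tdrd5, Tdrd9 and Gtsf1 were called lower than in Ttf carriers too. The differences were -0.83, -0.54 ± 0.086 and -0.42 ± 0.071, with limma's adjusted p = 0.0346 and 0.036 for the last 2. These 3 calls were each lost without Ttf replicate 1 or 2 or t12 replicate 2 or 3, without the filter, and with only the arrays of both groups. Mov10l1 and Mybl1, a helicase and a transcription factor that act early in the pathway, differed by 0.20 ± 0.094 and 0.19 ± 0.10 without a call. Without control replicate 1 no member was called by limma, and without control replicate 2, 2 were.

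Retrocopies that stand in for X genes while the X is silent gave mixed values. Of 5 tested, Pgk2 and Cstf2t fell and Utp14b rose, against 10.6% higher and 11.3% lower over all tested genes, and Pgk2 passed the filter through the controls alone. Utp14b, needed for ribosome assembly in male germ cells, read 5.90, 6.08 and 5.75 in the carriers and 4.89 and 4.91 in the controls and differed by 1.01 ± 0.14, with 5.93, 6.16 and 5.73 in the Ttf carriers. Cstf2t, a polyadenylation factor, differed by -0.25 ± 0.052, a call lost with either control array left out or without t12 replicate 2. Pdha2 and Cetn1 were not called, at -0.27 ± 0.15 and -0.73 ± 0.39.

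**Figure D4:**
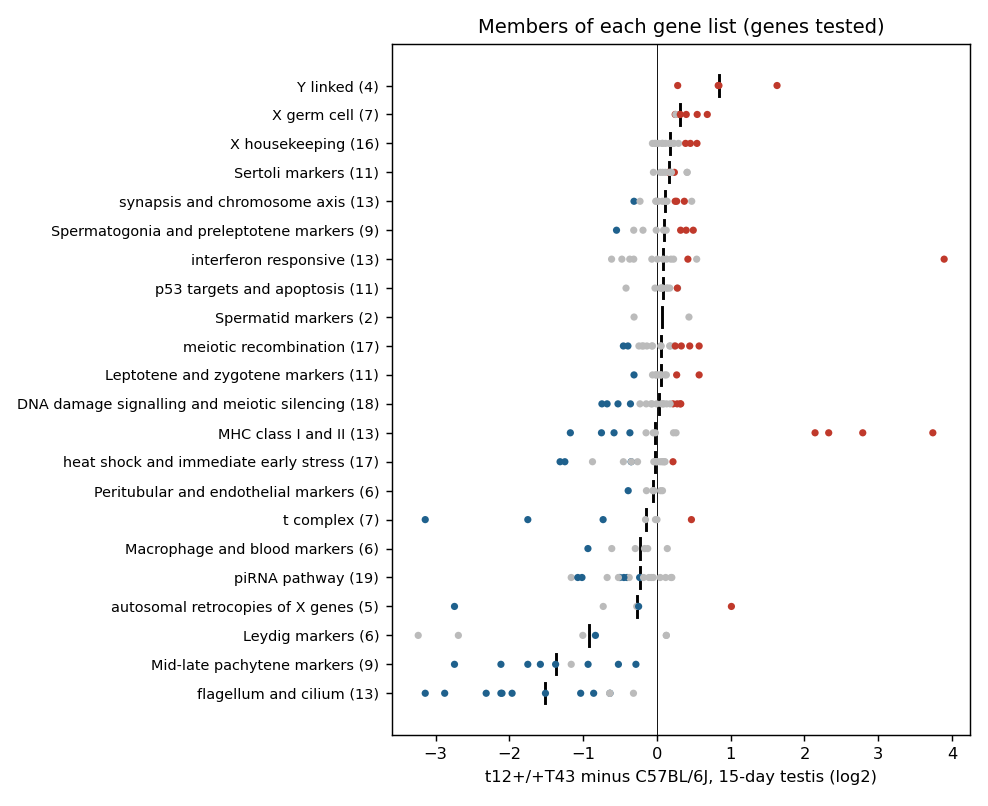
Each row is a gene list with the number of its tested members in brackets, and each point is a member at its log2 difference between t12+/+T43 (n = 3) and C57BL/6J (n = 2). Red and blue points were called higher and lower, grey points were not called, and the black tick is the median of the list. The mid-late pachytene and flagellum lists have medians of -1.37 and -1.51, and the Y and X germ cell lists have medians of 0.84 and 0.32.

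Further genes stood among the largest falls. Rbakdn read 2.77, 2.69 and 2.56 in the carriers and 7.76 and 7.22 in the controls, Adam32, a member of the ADAM metalloprotease family, read 4.69, 3.21 and 3.56 in the carriers and 7.94 and 7.39 in the controls, and Fbp1, the gluconeogenic fructose bisphosphatase, read 7.68, 6.64 and 6.46 in the carriers and 10.48 and 10.25 in the controls. Rbakdn differed by -4.81 ± 0.38, Adam32 by -3.85 ± 0.52 and Fbp1 by -3.44 ± 0.43. The largest falls were named only where carriers and controls did not overlap. Of all tested genes, 26.5% were lower in carriers without overlap. Rbakdn, and Cfap57 below, passed the filter through the controls alone and so had to be lower in carriers. The neighbours Cmtm2a and Cmtm2b on chromosome 8 both fell, with differences of -3.64 ± 0.35 and -3.80 ± 0.51. Cfap57, a ciliary protein, differed by -3.30 ± 0.33, Spag6l, of the central apparatus, by -3.16 ± 0.38, and A26c3 by -3.18 ± 0.49, a call lost without control replicate 1. In the Ttf carriers Adam32 read 7.30, 6.43 and 5.93, Fbp1 read 9.65, 9.12 and 8.47 and Cmtm2a read 7.78, 6.70 and 6.88, with every one of their values above those of the t12 carriers. The tests between the lines gave -2.73 ± 0.46 (adjusted p = 0.036) for Adam32, -2.16 ± 0.38 (adjusted p = 0.0377) for Fbp1 and -1.45 ± 0.32 (adjusted p = 0.0477) for Cmtm2a. Those 3 calls were each lost without Ttf replicate 1 or 2 or t12 replicate 2 or 3, without the filter, and with only the arrays of both groups.

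The lists of meiotic pairing and exchange had medians near 0. Of 13 tested genes of synapsis and the chromosome axis 3 rose (23.1%) and 1 fell (7.69%), with a median of 0.11, against 10.6% higher and 11.3% lower over all tested genes. Sycp1, the transverse filament of the synaptonemal complex, differed by 0.13 ± 0.14 and Sycp3 by 0.11 ± 0.066, neither called. Syce2, of the central element, rose by 0.27 ± 0.051, and Syce1, of the same structure, differed by -0.31 ± 0.079, and both calls were lost with either control array left out. Of 17 recombination genes 4 rose (23.5%) and 2 fell (11.8%, near the 11.3% of all tested genes), with a median of 0.05. Dmc1, the meiotic strand-exchange recombinase, read 10.40, 10.54 and 10.32 in the carriers and 9.95 and 9.75 in the controls and differed by 0.57 ± 0.093 (adjusted p = 0.00687), with 10.39, 10.47 and 10.29 in the Ttf carriers. Its adjusted p was 0.0502 without control replicate 2, where no member of the recombination list was called by limma, and without control replicate 1 the list kept 2 rises. Spo11, which makes the meiotic double-strand breaks, differed by 0.06 ± 0.21, and Prdm9, which places them, by 0.05 ± 0.11, neither called.

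Among 18 tested genes of DNA damage signalling and meiotic silencing 4 rose and 4 fell (22.2% each), with a median of 0.03, against 10.6% higher and 11.3% lower over all tested genes. The falls included H2ax, the histone phosphorylated on unsynapsed chromatin, at 11.34, 11.23 and 11.17 in the carriers and 11.83 and 11.72 in the controls, and Mdc1, the adaptor that spreads that mark, at 9.57, 9.52 and 9.25 in the carriers and 10.25 and 10.14 in the controls. H2ax differed by -0.53 ± 0.074 (adjusted p = 0.00398) and Mdc1 by -0.75 ± 0.15 (adjusted p = 0.015). Rnf8 and Rad1, a clamp subunit, were the others, at -0.68 ± 0.045 and -0.36 ± 0.053, the latter call lost without control replicate 1. The rises were Atm, the damage kinase, at 0.31 ± 0.059, Ubr2 at 0.32 ± 0.065, Brca1 at 0.27 ± 0.059 and Chek1 at 0.22 ± 0.053. Without control replicate 1 the list kept 2 falls and 0 rises by limma, and without control replicate 2 it kept 3 falls and 1 rise. Of 11 targets of p53 and apoptosis genes 1 rose (9.09%, near the 10.6% of all tested genes) and none was called lower. That gene, the caspase Casp9, differed by 0.28 ± 0.077 (adjusted p = 0.0421), a call lost when any of the 5 arrays was left out, and Cdkn1a, the cell cycle inhibitor, was not called at 0.17 ± 0.059 (adjusted p = 0.0775).

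Of 9 tested markers of spermatogonia and preleptotene cells 3 rose and 1 fell (33.3% and 11.1%), against 10.6% higher and 11.3% lower over all tested genes. Stra8, the gene that commits germ cells to meiosis, read 11.81, 11.86 and 11.80 in the carriers and 11.43 and 11.42 in the controls and differed by 0.40 ± 0.07, and Kit, a receptor of differentiating spermatogonia, by 0.49 ± 0.12. Lin28a, of early spermatogonia, differed by -0.55 ± 0.12 and was called lower. With either control array left out none of the 9 was called by limma, against 371 and 280 higher calls over all genes without replicates 2 and 1.

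The testis differences were then set beside the change that normal spermatocytes undergo as they pass from pre-mid to mid-late pachytene, measured on other arrays of C57BL/10J cells. That stage comparison called 59.2% of 9308 genes (27.5% higher, 31.7% lower in mid-late cells). Over the 17 other autosomes, 157 of the genes lowered by 2-fold or more in t12 testes could be tested there, and 126 of them (80.3%) were higher in mid-late cells, against 23.2% of all tested genes of those autosomes. Of the genes called higher in t12 testes on those autosomes, 55.1% were lower in mid-late cells, against 33.6% of all. Seen the other way, 358 of the 1621 genes that were higher in mid-late cells fell in t12 testes (22.1%) and 79 rose, whereas of the 2349 that were lower in mid-late cells 375 rose (16%) and 100 fell. Without control replicate 1 those shares became 5.98% falling and 3.70% rising, and without control replicate 2 they became 11% and 5.20%.

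On the X, which normal cells silence at this stage, 83.2% of tested genes were lower in mid-late than in pre-mid cells. Of the 75 X genes called higher in t12 testes that could be tested there, 68 (90.7%) were. Of the proximal 17 genes called lower in t12 testes by any amount, 41.6% were higher in mid-late cells and 21.8% lower. Over all tested genes of proximal 17 the shares were 27.3% and 29.4%. Of all genes called lower on the other autosomes, 45.0% were higher in mid-late cells and 12.6% lower, against 23.2% and 33.6% of all tested there.

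**Figure D5:**
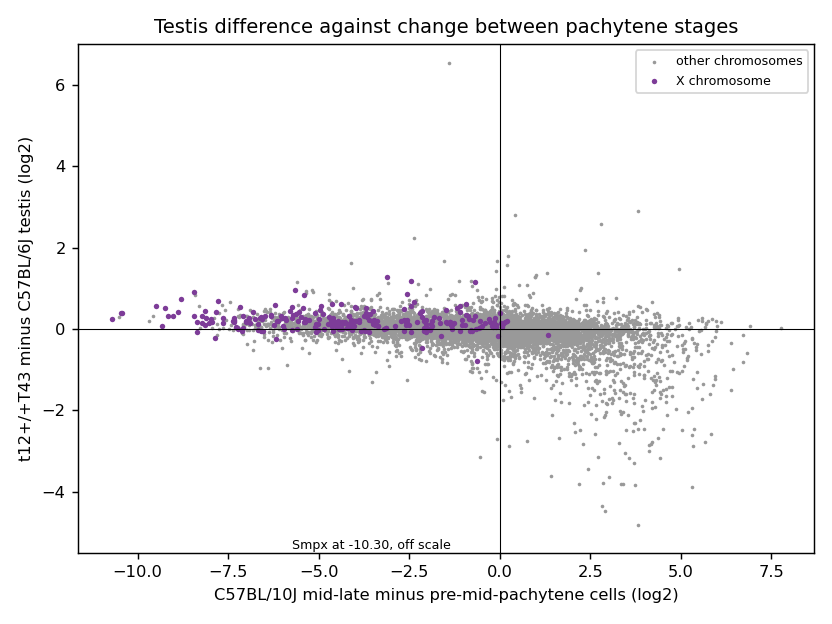
Each point is a gene tested in both comparisons, at its change from pre-mid to mid-late pachytene in C57BL/10J cells (n = 2 each) and its difference between t12+/+T43 and C57BL/6J testes, both on the log2 scale. X genes, in purple, lie mostly to the left and slightly above 0, and the deepest testis falls lie mostly to the right, among genes higher in mid-late cells. Smpx is off the scale at -10.30.

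Sorted pre-mid-pachytene cells of t12 carriers, compared with C57BL/10J cells on arrays that share nothing with the testes, called 873 of 8939 genes (9.77%), of which 316 were higher (3.54%) and 557 lower (6.23%). In both tissues 175 genes were called, 162 of them in the same direction (59 higher and 103 lower). That is 8.12% of all testis calls and 18.6% of all sorted-cell calls, which include genes not tested in the other tissue. The 59 were 7.03% of the 839 higher testis calls tested in sorted cells, against 3.63% of all genes tested in both. The 103 were 10.6% of the 971 lower testis calls tested there, against 2.59%. Proximal 17 was again lowered: of the 230 of its genes tested in both, 46 were lower in sorted t12 cells (20.0%) and 2 were higher, against 2.59% and 3.63% of all genes tested in both. Of the 78 X genes called higher in the testes and tested in sorted cells, 3 were higher there. Individual falls in both tissues included Rsph1 at -2.53 ± 0.42, Septin12 at -4.85 ± 0.49, Pgk2 at -4.47 ± 0.77 and Tcp11 at -4.56 ± 0.42 in the sorted cells. The sorted comparison rested on few arrays, and it called 70 genes without C57BL/10J replicate 1, 151 without replicate 2 and 1390 without t12 replicate 2.

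Motifs were also counted before the genes called lower by 2-fold or more in the testes. A GC box was present in the 250 bases before 42.9% of those that had a promoter in the table, against 62.0% of tested genes, and the hexamer TATAAA before 10.4% against 5.92%. Of the genes called higher, 66.3% had a GC box. These are counts of letters on both strands, not of bound sites.

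Markers of somatic cells were read on the same arrays. Sertoli markers had a median of 0.17 with 2 rises of 11 (18.2%, against 10.6% of all tested genes), Wt1 at 0.24 ± 0.046 and Sox9 at 0.16 ± 0.046, and both calls were lost with either control array left out, that of Sox9 also with any 1 carrier array left out. The level of Leydig markers varied within groups: over the 7 on the array the mean log2 value was 6.00, 5.49 and 7.43 in the carriers, 7.20 and 7.77 in the controls and 5.05, 7.07 and 7.44 in the Ttf carriers. Star, which delivers cholesterol for steroid synthesis, read 4.99, 3.77 and 7.90 in the carriers and 7.81 and 8.68 in the controls, and Cyp17a1, a steroid hydroxylase, read 4.80, 2.67 and 9.36 in the carriers and 8.13 and 9.57 in the controls. In both genes carrier replicates 1 and 2 were low and replicate 3 stood with the controls, and neither was called (adjusted p = 0.274 and 0.397). Hsd3b1 was the 1 Leydig marker called lower, at -0.83 ± 0.16, a call lost with either control array left out. The mean of the 8 macrophage and blood markers was 5.57, 5.63 and 6.10 in the carriers and 6.04 and 5.97 in the controls, and Adgre1, a macrophage surface receptor, differed by -0.94 ± 0.23 (adjusted p = 0.0268), a call lost with either control array left out or without t12 replicate 1 or 2. The part of these cells in the other results was not tested.

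Immediate early genes were high on 1 control array. Egr1 read 9.91, 9.63 and 9.82 in the carriers and 11.54 and 10.66 in the controls, Ier3 read 6.41, 6.40 and 6.34 in the carriers and 8.34 and 6.93 in the controls and Fos read 7.73, 7.75 and 7.63 in the carriers and 9.35 and 7.81 in the controls, with control replicate 1 the highest of the 5 in each. Of 17 tested stress genes 3 fell (17.6%, against 11.3% of all tested genes), with differences of -1.31 ± 0.23 for Egr1, -1.25 ± 0.35 for Ier3 and -0.35 ± 0.073 for Jun, and 1 rose, the chaperone gene Hspa5, by 0.22 ± 0.047. The calls of Jun and Hspa5 were lost with either control array left out, and 1 member was called lower without control replicate 1. Without that array 571 genes of the whole comparison were called, as given above.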

How the data were processed

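RNA of 15-day testes and of sorted spermatocytes was measured on Affymetrix arrays. Per the labels' protocols, 20 to 30 ng of RNA went through 2 labelling cycles. GCRMA, in a version that is not stated, made the log2 values that the authors deposited, per the submitters' processing notes. The sources used here do not give the genome build, any filter or which arrays were normalized together. Of 16539 probe sets, 15780 carry 1 gene symbol and 759 none, and the latter were left out. A RefSeq table (GRCm38.p6) gave gene order for 15752 genes and promoter sequences for 65 of the 87 named genes.

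Values were used as deposited. The 8 testis arrays were fitted together with limma 3.58.1 (R 4.3.3), with 1 mean per group, and the Benjamini-Hochberg adjustment ran over all 9098 genes. The sorted cells (10 arrays) were fitted separately. The t12 and Ttf comparisons with C57BL/6J share their control arrays, and their values are only set side by side. The Ttf against C57BL/6J and the pachytene stage comparisons were added after the data were seen. Proximal 17 ends before Pgk2. Named genes were first the 12 largest rises and 12 largest falls without overlap between groups, with clone and predicted names left out. To these were added up to 3 members of each list or region with the smallest p, whatever their name, and Nnt and Zfy2. Other genes named in a list or region were chosen after their values were seen. The members, lists and tests were chosen with earlier results of these data known, and lists are described by counts without a test. Arrays give no depth, and their number limits the precision. The model was tested on simulated data. Tables were made with Python 3.11.15 and pandas 2.3.3. Alternatives covered the filter, the scaling, the fit, a replicate block and each left-out replicate.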

Additional observations from a re-analysis of the deposited data

Results flagged for a closer look

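Of the genes named by the rule and called between t12+/+T43 and C57BL/6J testes, 24 were also called between t12+/+T43 and Ttf+/+T43H testes, so that their difference from the controls itself differed between the carrier lines. Each value is the log2 difference t12 minus Ttf from limma. The higher genes in t12 carriers were Psmb9 (3.48), H2-Bl (2.52), Tap1 (2.32), Tap2 (1.89), Irf9 (0.42), Tmem255a (0.33) and Stag2 (0.32). The lower genes were Pabpc6 (-2.90), Adam32 (-2.73), Dnah8 (-2.64), Fbp1 (-2.16), Spag6l (-1.91), Morc2b (-1.64), Cmtm2a (-1.45), Cfap57 (-1.36), Rsph1 (-1.17) and Dnali1 (-1.02). Smaller differences were found for Tdrd5 (-0.83), Clgn (-0.69), Tdrd9 (-0.54), Gtsf1 (-0.42), Tcp1 (-0.40), Syce1 (-0.37) and H2ax (-0.33). Only Psmb9, Tap1, Tap2, Pabpc6 and Rsph1 kept this call in every setting that was run.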

How the results depend on the processing

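No named gene with a call changed sign in any setting. The split of all calls did change: 48.3% were higher on the deposited values, 57.5% after quantile normalization and 59.3% after median centring, and the median of chromosome 16 went from -0.01 to 0.03 under both. Of 75 named genes called between t12+/+T43 and C57BL/6J testes, 48 kept the call in every setting, 27 lost it without some replicate (22 of them only so) and 5 lost it in another setting as well. The 1994 calls of that comparison became 571 to 1650 with 1 replicate left out. Calls between t12+/+T43 and Ttf+/+T43H testes, 456, became 149 with no filter and 36 with only the arrays of the 2 groups, and 10 to 890 with 1 replicate left out. Scaling moved the share of those calls that were higher from 21.5% to 31.8% (quantile normalization) and 34.5% (median centring). Calls between t12+/+T43 and C57BL/10J sorted cells, 873, became 345 with the filter on every array, 420 with only the arrays of the 2 groups, and 70 to 1390 with 1 replicate left out. Same-numbered t12 and Ttf testes deviated together at r = 0.49, 0.04 and 0.67. Differently numbered t12 and Ttf testes gave values from -0.63 to 0.39. Same-numbered t12 and C57BL/6J testes gave 0.25 and -0.07, but with 2 control arrays the control deviations mirror each other. Whether the numbers pair the samples is therefore not settled by these values. With the replicate number as a block the calls were 2872 for t12 against C57BL/6J, 1695 for t12 against Ttf and 453 for the sorted cells. On simulated data with known changes, 87% of 2-fold and 97% of 4-fold changes were recovered for t12 against C57BL/6J, and 4% and 54% for the sorted cells, so a sorted-cell gene without a call may still differ by that much. The simulated noise was drawn independently for each gene and array. Deviations shared between arrays, as given above, were not simulated, so recovery in the real data may differ. A lone control array is assumed to vary like the other groups.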
